A study of Rattus norvegicus with 6 samples.

Results

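The miRNAs described here are those whose rat name carries a 4-digit number, such as miR-1839 or miR-6321. Numbers are given to miRNAs in the order in which they are reported, so these names were added late. Of 1465 rows in the deposited table, 96 were annotated rat miRNAs with a 4-digit number outside miR-1193, miR-1264, miR-1298, miR-1912 and miR-6331, which were set aside. The 34 members were selected on their measured values, as the rows among these 96 that reached 1 or more in 3 or more of the 6 libraries. Because the level itself chose them, levels and numbers of libraries with a value are given as descriptions without a test.

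Small RNA was sequenced from the medial prefrontal cortex of 6 rats, 3 per group, a frontal area that takes part in mood and in the control of the stress response. For 4 weeks Control rats met nothing beyond handling and the cleaning of their cages. Rats of the chronic mild stress (CMS) group, a rodent model of depression, met stressors in random order over the same 4 weeks: cage tilt, restraint, cold swimming, foot shock, tail clipping, loss of food or of water, and a reversed light cycle. The labels used here state no strain, sex or age. Values are the authors' normalized levels rounded to whole numbers, a blank was read as 0, and the number of reads behind a value is unknown.

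A typical miRNA is cut from a hairpin by Drosha with its partner Dgcr8 and then by Dicer, and 1 arm of the hairpin (5p or 3p) is loaded onto Argonaute, where bases 2 to 8, the seed, select target messenger RNAs. Deep sequencing later added miRNAs that are scarce, specific to a few species or made along other routes. Some come from introns that splicing itself frees as a hairpin (mirtrons). Others are cut from H/ACA small nucleolar RNAs or small Cajal body RNAs, which guide pseudouridine formation in ribosomal and spliceosomal RNA. In human cells the RNA ACA45, also called SCARNA15, is a known Dicer substrate of this kind.

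RefSeq (GRCr8) held a mature sequence for 31 of the 34 members. The precursors of the most abundant members are shown first, because in RefSeq they carry the names of such guide RNAs. The gene of miR-1839 is named Scarna15, that of miR-1843a is Scarna3 and that of miR-3068 is Snora58, while miR-1843b keeps the plain name Mir1843b. RefSeq gives all of these genes the type miRNA, so here the link to guide RNAs rests on the names alone. Capitals mark the mature 5p and 3p arms.
Scarna15 (miR-1839), chr1:144893856-144893919, plus strand: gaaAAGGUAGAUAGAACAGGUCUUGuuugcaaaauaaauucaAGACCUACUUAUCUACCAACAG
Scarna3 (miR-1843a), chr6:104955347-104955436, minus strand: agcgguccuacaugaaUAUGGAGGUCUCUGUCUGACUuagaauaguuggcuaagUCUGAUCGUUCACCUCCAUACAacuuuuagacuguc
Mir1843b (miR-1843b), chr13:74085000-74085061, plus strand: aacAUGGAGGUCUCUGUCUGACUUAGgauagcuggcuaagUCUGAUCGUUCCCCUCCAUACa
Snora58 (miR-3068), chr6:112811875-112811950, minus strand: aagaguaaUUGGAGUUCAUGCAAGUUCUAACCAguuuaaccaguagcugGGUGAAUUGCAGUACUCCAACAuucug
The 5p arms of miR-1843a and miR-1843b agree over 20 bases without a mismatch, with miR-1843b starting 1 base later, which gives them different seeds. Their 3p arms share a seed and differ by A12C over 21 bases, counted from the 5′ end of miR-1843a-3p. Reads could therefore be split between these hairpins in a way the values do not show, and their separate levels are uncertain.

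The mature sequences of the other members that the results turn on are given with the seed in capitals. Those of miR-6321, miR-3064-3p and miR-6329 are shown because they passed the test between groups. The others are among the 10 members with the highest mean.
miR-6321: uACUGCAGugaguucuaugaagc
miR-3064-3p: uUUGCCACacugcaacaccuuaca
miR-6329: aAUGUGACucagcuaucugaaca
miR-3099: uAGGCUAGaaagagguugggga
miR-1224: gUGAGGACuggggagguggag
miR-3559-5p: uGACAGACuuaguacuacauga
miR-1249: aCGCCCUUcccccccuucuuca
miR-3085: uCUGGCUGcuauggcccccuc
Few members belong to seed families. Among sequences of tested miRNAs, 3 of 31 members (9.68%) shared a seed with another tested annotated miRNA, against 118 of 395 lower-numbered ones (29.9%). These were the 3p arms of miR-1843a and miR-1843b, which share theirs with each other, and miR-3065-5p, which shares its seed with miR-7a-1-3p. Median GC content was 47.8% in members and 47.6% in lower-numbered miRNAs, with upper quartiles of 63.6% and 54.5%.

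Members were scarce compared with annotated miRNAs of lower number. Of the 96 listed 4-digit rows, 54 (56.2%) were blank in all 6 libraries and 34 (35.4%) passed the threshold. Of 592 rows for let-7 and numbers of 1 to 3 digits, 136 (23%) were blank throughout and 431 (72.8%) passed. Among rows that passed, the median of the mean value over the 6 libraries was 5.58 for members and 79.7 for lower numbers. The median log2(value + 1) level of members minus that of lower numbers was -3.65, and the same gap lay between -3.96 and -3.36 when computed in each library. A mean under 10 was found for 21 members (61.8%) and for 100 lower-numbered miRNAs (23.2%).

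Levels did not fall evenly with the number. Rows whose 4-digit number starts with 1 passed in 10 of 17 cases, with a median mean value of 51.6, against 74.9 for 3-digit numbers starting with 3 to 9. Of numbers starting with 3, those before miR-3541 passed in 9 of 21 cases, with a median of 17.7. Those from miR-3541 onwards passed in 7 of 40 cases, with a median of 1, and 28 of the 40 were blank throughout. Numbers starting with 6 passed in 7 of 14 cases, with a median of 2.17, and none of these reached a mean of 10.

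**Figure D1:**
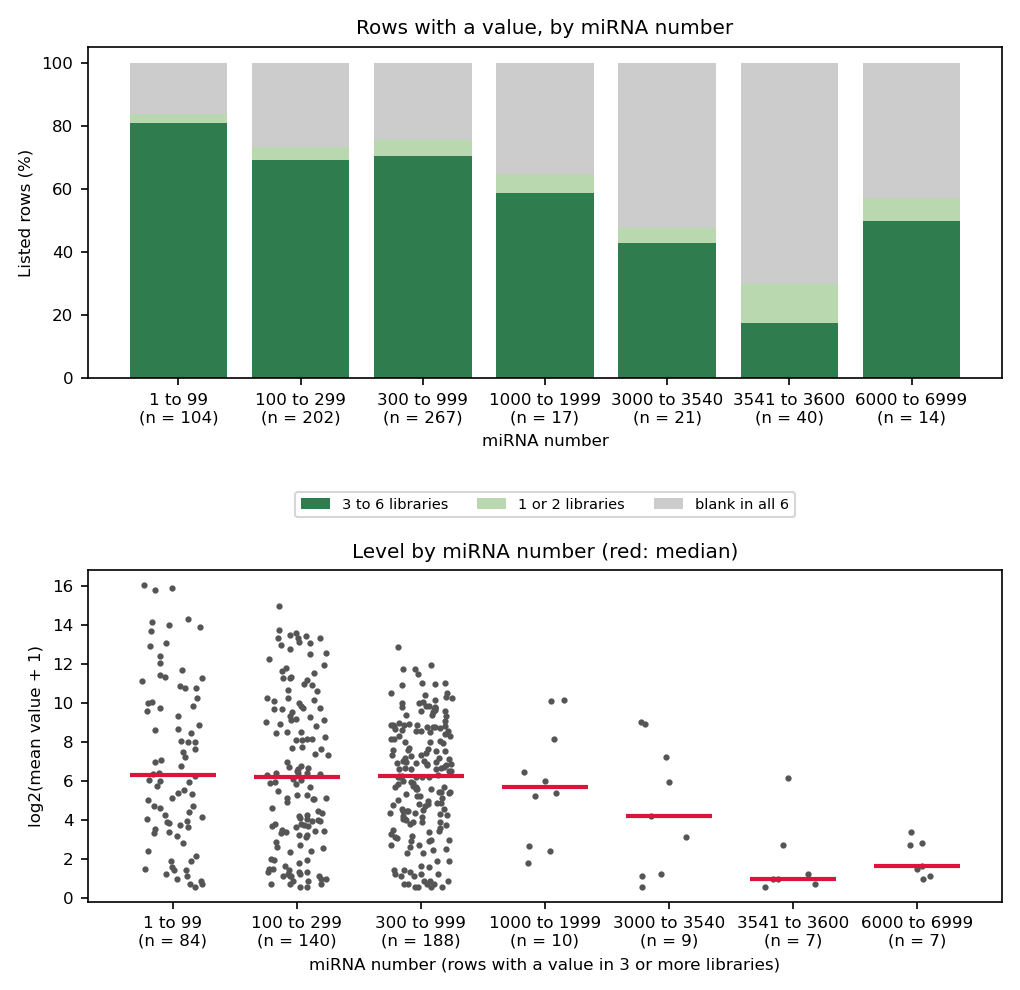
Upper panel: percent of listed rows with a value in 3 to 6 libraries, in 1 or 2, or in none, by miRNA number. Lower panel: log2(mean value + 1) of each row that passed, 1 point per miRNA, with the median in red. Numbers of up to 3 digits have similar medians, and those from miR-3541 onwards show the largest blank share plotted, 28 of 40 rows.

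The level of members was held by a few hairpins. Together the 34 members made up 0.539% to 0.623% of the annotated total of each library, and the 8 arms of miR-1839, miR-1843a, miR-1843b and miR-3068 held 86.8% to 89.2% of that sum. The highest member, miR-1843a-5p, had values of 1147, 1421 and 1202 in Control and 956, 1070 and 1142 in CMS, which placed it at rank 74 among annotated rows by mean. The next, miR-1839-5p, had 1045, 1068 and 951 in Control and 1231, 1113 and 1130 in CMS. Their order was not fixed, since miR-1843a-5p was the higher of the pair in 4 of 6 libraries. The 2 arms of miR-3068 followed, and each was the higher in 3 libraries. Below them miR-1843b-5p lay between 252 and 328, and miR-3099 between 107 and 183.

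**Figure D2:**
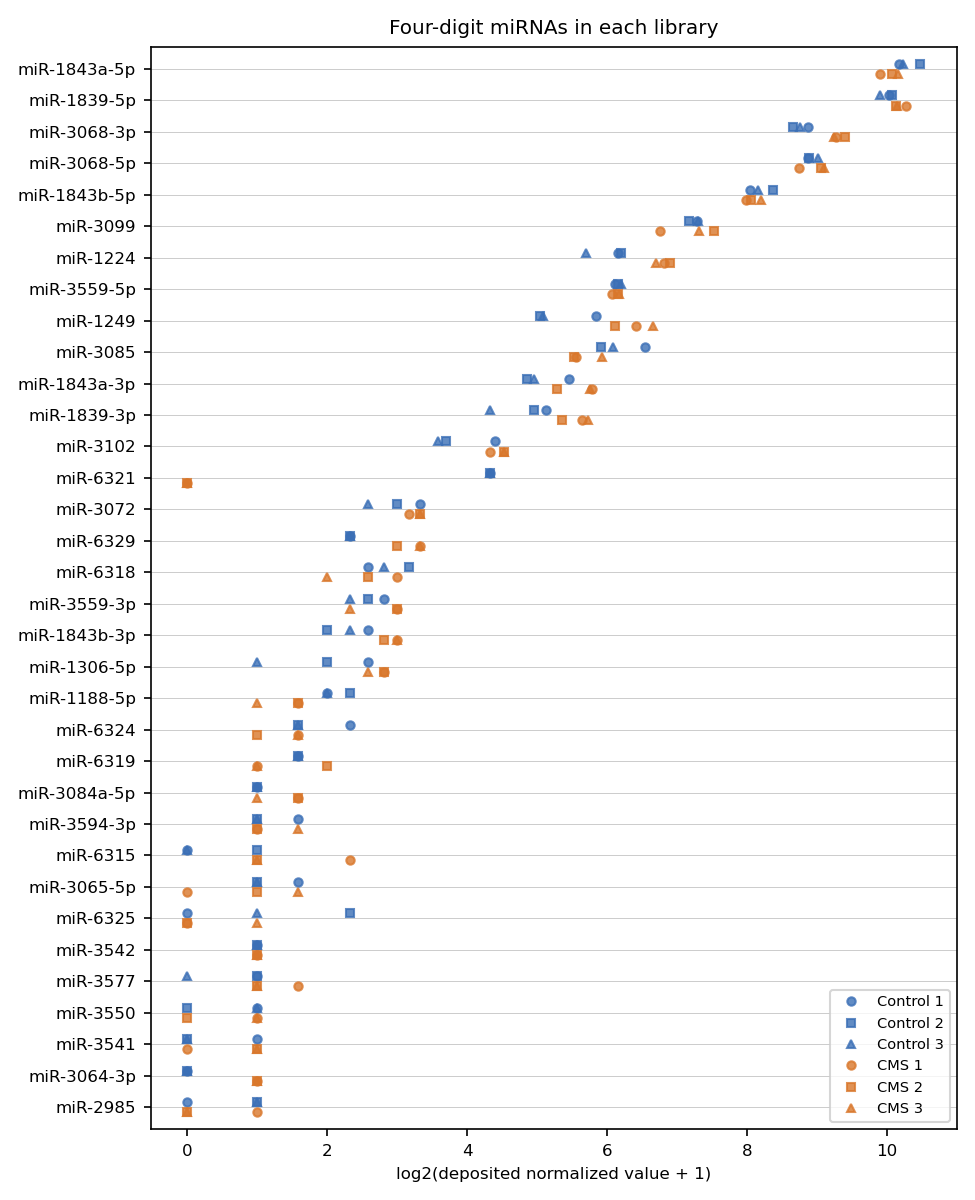
Values of the 34 members in each library as log2(value + 1), ordered by mean, with Control in blue and CMS in orange and 1 marker shape per replicate number. Levels run from single units to 1421, and miR-6321 is the row where the Control points (19) and CMS points (0) lie farthest apart.

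Of the 31 members with a sequence, 25 overlap protein-coding genes in RefSeq (the strand of those genes was not compared). That includes miR-1843a in Dcaf5, miR-1843b in Cop1 and miR-3068 in Alkbh1, so the trait does not set apart the members of intermediate level named next. They are miR-1224, a known mirtron of Vwa5b2, miR-3559 in Zdhhc15, which encodes a palmitoyltransferase, miR-1249 in Kiaa0930 and miR-3102 in Arhgef17. The level of miR-3559-5p was the steadiest among members with a mean of 10 or more, at 68, 70 and 72 in Control and 66, 70 and 71 in CMS. Its 3p arm stood at 4 to 7. The member miR-3085 had 92, 59 and 67 in Control and 46, 45 and 60 in CMS, and the ranges overlapped at 59 and 60.

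A group of 14 members had a mean under 3, and 9 never exceeded a value of 2. Rounding leaves little to compare at such values. They include miR-2985, whose gene lies in Gria2, which encodes an AMPA receptor subunit, with a value of 1 in Control 2, Control 3 and CMS 1 and none elsewhere. The value of miR-3542, in the helicase gene Ddx41, was 1 in all 6 libraries. The name miR-3084a-5p stands for sequences from 2 genes in RefSeq, and its values were 1 in each Control library and 2, 2 and 1 in CMS. The members miR-3541, miR-3550, miR-3577, miR-3594-3p, miR-6315, miR-6319, miR-6324 and miR-6325 ranged from 0 to 4.

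A value was present in all 6 libraries for 25 of the 34 members. Each library had a value for 30 to 32 members, and members filled 91 of 102 cells in Control and 92 of 102 in CMS. The groups thus differed little in how many members had a value. The 5 members just inside the threshold, with 3 libraries, were miR-2985, miR-3064-3p, miR-3541, miR-6321 and miR-6325. For miR-6325 the values were 4 in Control 2, 1 in Control 3 and 1 in CMS 3. Just outside, with 2 libraries, were 6 rows that never exceeded 2. Of these miR-3572 and miR-6215 each had 2 in CMS 1 and 1 in CMS 2, and miR-3583-3p had 2 in CMS 1 and 1 in CMS 3. Both miR-1306-3p and miR-3547 had a 1 in a Control and in CMS 1, and miR-3594-5p had 1 in Control 3 and 2 in CMS 3. CMS 1 was the library with most annotated rows holding a value, 477 against 448 to 458 in the others, and its part in these low values was not tested.

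The comparison of stressed with undisturbed rats was fitted with limma on log2(value + 1) over 657 miRNAs. Among the 34 members 2 rose in CMS, miR-3064-3p and miR-6329, and 1 fell, miR-6321 (limma, Benjamini-Hochberg adjusted p under 0.05). Over all miRNAs tested the share passing was 4.11%, with 3.35% higher and 0.761% lower, and the members' counts of 2 and 1 are too small to be read against it. None of the 13 members with a mean of at least 10 passed. Of 331 lower-numbered miRNAs with such a mean, 4 rose and 1 fell, so none among 13 is no mark of the members. At an unadjusted p under 0.05 there were 9 members (26.5%), 7 higher and 2 lower, against 23.3% of all miRNAs (17.7% higher, 5.63% lower). Groups did not overlap for 11 members (32.4%), 8 higher and 3 lower, against 25.9% of all (19.6% higher, 6.24% lower). Both counts hold miR-6321 and miR-3064-3p, which became members through 1 group alone. Without these, 7 of 32 members (21.9%) had an unadjusted p under 0.05 and 9 (28.1%) did not overlap. The shares over all miRNAs still hold rows of that kind. The median log2 difference was 0.11 over members and 0.08 over all miRNAs, and a trimmed-mean scaling moved the differences by a median of -0.13. The median over members was then -0.0095, that over all miRNAs -0.040, and 11 members (32.4%) against 24.5% of all miRNAs had an unadjusted p under 0.05. That count again holds miR-6321 and miR-3064-3p.

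The count of 3 members rested on single libraries, and the 27 of all 657 miRNAs moved with them as well. It was 5 without Control 1, with miR-1249, miR-3068-3p and miR-3102 added and miR-6321 not tested. In that fit 55 of all 645 miRNAs tested passed. Leaving out Control 2 or Control 3 left miR-3064-3p alone, again with miR-6321 not tested. Over all miRNAs 13 of 644 and 9 of 644 then passed. Leaving out CMS 1 or CMS 3 left miR-6321 alone, and leaving out CMS 2 left miR-6321 and miR-6329, in each case with miR-3064-3p not tested. Over all miRNAs 2 of 635 passed without CMS 1, 8 of 645 without CMS 2 and 5 of 642 without CMS 3. With a trimmed mean only miR-6321 passed among members, and 22 of all 657 miRNAs did.

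**Figure D3:**
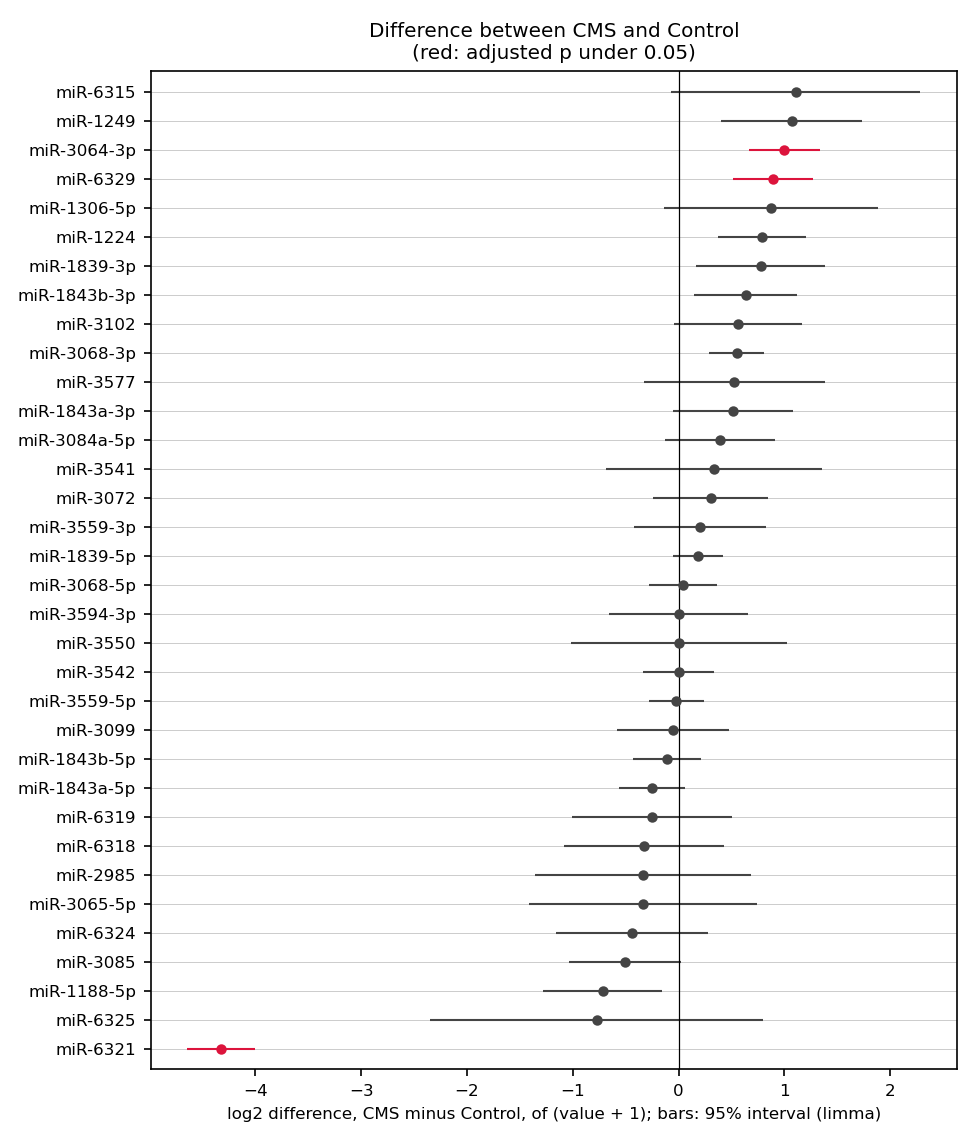
The log2 difference of (value + 1) between CMS and Control for each member, with 95% intervals from limma and members at an adjusted p under 0.05 in red. Most intervals include 0, and miR-6321 lies alone at -4.32.

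The member that fell, miR-6321, had a value of 19 in every Control library and none in any CMS library. Its gene overlaps Rufy3, which takes part in axon growth, on chromosome 14 (chr14:19743454-19743476, minus strand). The groups did not overlap, and no fold is given because CMS is listed at 0. The log2 difference was -4.32 ± 0.13 (SE, limma adjusted p = 4.9e-05, n = 3 per group). With no spread within either group, that SE comes from the spread shared across miRNAs. It passed in every fit that tested it (limma adjusted p up to 0.0125), but it was not tested without a Control library or at a minimum mean of 10. It became a member through Control alone, so a difference between groups was built into the choice. Each of these fits holds the same 3 Control values and none in CMS, so passing them adds no separate support. Of 391 tested rows with a Control mean of at least 10, miR-6321 was the single one with the same value in all 3 Control libraries. It was also the single row of the table with such a mean and no value in CMS. Its RefSeq hairpin of 141 bases holds a near copy of the mature sequence 49 bases further on, with the substitution C3U counted from the 5′ end of the mature form. That copy is shown with the differing base in capitals.
Second copy: uaUugcagugaguucuaugaagc

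The level of miR-6329, whose gene overlaps Rdx on chromosome 8 (chr8:61334292-61334314, minus strand), rose. It had 4 in each Control library and 9, 7 and 9 in CMS, a 2.08-fold difference of means without overlap. The log2 difference was 0.89 ± 0.15 (SE, limma adjusted p = 0.0386, n = 3 per group). The call was lost with a trimmed mean (limma adjusted p = 0.0815), with quantile normalization (limma adjusted p = 0.0534) and with replicate number as a block (limma adjusted p = 0.118). It was also lost when any library other than Control 1 or CMS 2 was left out (limma adjusted p from 0.0948 to 0.169). The third call, miR-3064-3p, rested on a value of 1 in each CMS library and none in Control. Its gene overlaps Ddx5 (chr10:92225520-92225543, minus strand), which encodes a helicase that works with Drosha. The log2 difference was 1.00 ± 0.14 (SE, limma adjusted p = 0.017, n = 3 per group). As with miR-6321, neither group had any spread, so that SE comes from the spread shared across miRNAs. The call was lost with a trimmed mean (limma adjusted p = 0.0785) and with a pseudocount of 10 (limma adjusted p = 0.0547). It was also lost with replicate number as a block (limma adjusted p = 0.0703). Both miR-6321 and miR-3064-3p entered the members through 1 group alone, so for these a difference between groups was built into the choice. Without them 1 of 32 members passed, a count too small to be read against the 4.11% of all miRNAs.

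None of the 8 arms of the hairpins shown first passed the test between groups, and 8 are too few to be read against the 4.11% of all miRNAs. The 3p arm of miR-3068 had 465, 400 and 429 in Control and 614, 675 and 605 in CMS. All CMS libraries were higher, with a 1.46-fold difference of means, and the log2 difference of 0.55 ± 0.11 (SE) lay just outside the threshold (limma adjusted p = 0.0505, n = 3 per group). It lay farther outside with quantile normalization (limma adjusted p = 0.151) and with a trimmed mean (limma adjusted p = 0.15). The 5p arm of miR-3068 had 468, 469 and 514 in Control and 426, 528 and 549 in CMS. The difference of 0.04 for that arm turned negative with a trimmed mean (-0.091) and with quantile normalization (-0.11). The 3p arm of miR-1839 had 34, 30 and 19 in Control and 49, 40 and 52 in CMS, without overlap (log2 difference 0.77, limma adjusted p = 0.141). Its 5p arm, with the values given above, was also higher in each CMS library, by a log2 difference of 0.18 (limma adjusted p = 0.29).

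The 3p arms of both miR-1843 hairpins also had higher means in CMS. Values of miR-1843a-3p were 43, 28 and 30 in Control and 54, 38 and 53 in CMS (log2 difference 0.52, limma adjusted p = 0.236). Those of miR-1843b-3p were 5, 3 and 4 in Control and 7, 6 and 7 in CMS (log2 difference 0.63, limma adjusted p = 0.134). For the 5p arms the log2 differences were -0.25 for miR-1843a-5p, lower in every CMS library (limma adjusted p = 0.266), and -0.11 for miR-1843b-5p (limma adjusted p = 0.649).

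The share of the 3p arm within each hairpin does not depend on a scaling of the library by 1 common factor. Whether the authors' normalization was of that kind is unknown. The share was compared after these values had been seen, and for miR-1843b it rests on rounded 3p values of 3 to 7. For miR-3068 the 3p arm made up 49.8%, 46% and 45.5% of both arms in Control and 59%, 56.1% and 52.4% in CMS. The more abundant arm was thus 5p in every Control library and 3p in every CMS library. For miR-1839 the share was 2.61% ± 0.605 in Control and 3.9% ± 0.469 in CMS (SD, n = 3 each). For miR-1843a it was 2.66% ± 0.863 and 4.4% ± 0.959, and for miR-1843b 1.39% ± 0.487 and 2.42% ± 0.252. The hairpin miR-3559 stood at 6.68% ± 1.42 and 8% ± 2.33.

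The log2 ratio of the 3p to the 5p arm was higher in CMS for all 5 hairpins with both arms among the members, and without overlap for 3 of them. Over all 144 hairpins with both arms tested, 36.8% did not overlap in either direction and 19.4% were higher without overlap, and the ratio was higher in 70 and lower in 73. None of the 5 passed the test on the ratio, against 7.64% of the 144 (limma over 144 hairpins). Of those that passed, 2 were higher and 9 lower in CMS, so few passed in the members' direction. The log2 differences of the ratio were 0.51 ± 0.18 for miR-3068 (limma adjusted p = 0.105), 0.59 ± 0.24 for miR-1839 (limma adjusted p = 0.144), 0.77 ± 0.29 for miR-1843a (limma adjusted p = 0.128) and 0.74 ± 0.27 for miR-1843b (limma adjusted p = 0.108), each with its SE. Without Control 1, whose 3p shares were the highest among Controls in each of the 5 hairpins, 4 of the 5 passed (limma adjusted p of 0.0273 to 0.0484), all but miR-3559. In that same fit 46 of all 144 hairpins (31.9%) passed. When any of the other 5 libraries was left out, 0 of the 5 passed. The ratios of miR-1843a and miR-1843b may share reads and are not independent of each other.

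**Figure D4:**
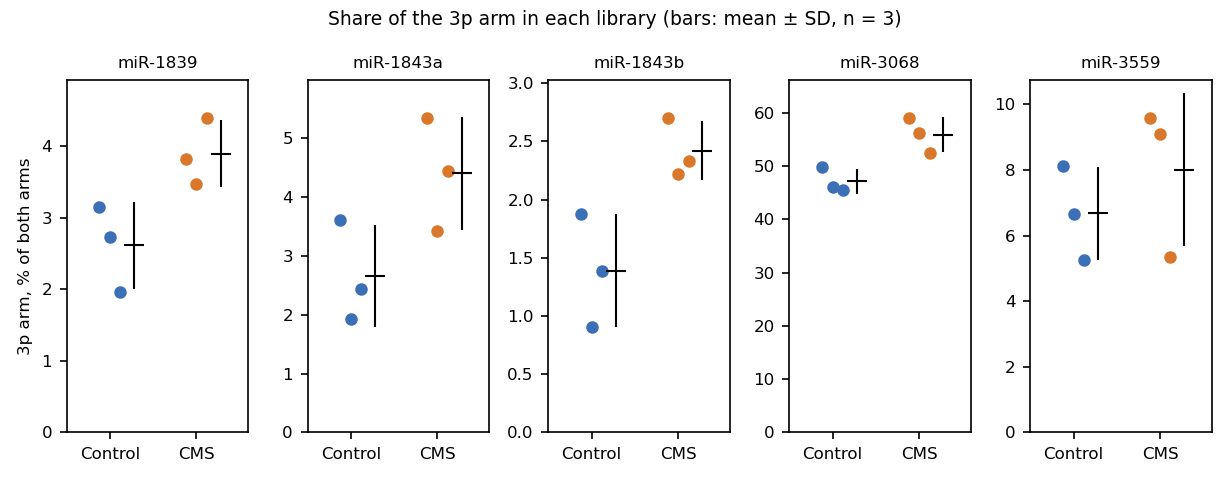
Share of the 3p arm in the sum of both arms, in percent, for 5 hairpins, with 1 point per library, Control in blue, CMS in orange and mean ± SD beside them (n = 3). Each panel has its own axis from 0. Points of the groups do not overlap for miR-1839, miR-1843b and miR-3068.

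Among the other members that overlap protein-coding genes, the mirtron miR-1224 had 70, 72 and 51 in Control and 111, 118 and 103 in CMS. The groups did not overlap and the means differed 1.72-fold, but the log2 difference of 0.79 ± 0.17 (SE) missed the threshold (limma adjusted p = 0.0541, n = 3 per group). It passed when only miRNAs with a mean of at least 10 were tested (limma adjusted p = 0.0475). In every other fit it did not pass (limma adjusted p up to 0.182). That includes quantile normalization (limma adjusted p = 0.105) and a trimmed mean (limma adjusted p = 0.106). The values of miR-1249 were 56, 32 and 33 in Control and 84, 68 and 100 in CMS, again without overlap, with a 2.08-fold difference of means and a log2 difference of 1.07 ± 0.27 (SE, limma adjusted p = 0.0856, n = 3 per group). It passed with the same minimum mean (limma adjusted p = 0.0475) and without Control 1 (limma adjusted p = 0.033), its highest Control. No other fit passed miR-1249 (limma adjusted p up to 0.25). The mirtron miR-3102 had 20, 12 and 11 in Control and 19, 22 and 22 in CMS (limma adjusted p = 0.226), and Control 1 lay within the CMS range. Without Control 1 it passed (limma adjusted p = 0.0358), and in no other fit (limma adjusted p up to 0.483). For miR-1306-5p, whose gene lies in Dgcr8, values were 5, 3 and 1 in Control and 6, 6 and 5 in CMS (limma adjusted p = 0.245). The third mirtron looked for, miR-1225, has no row among the annotated miRNAs of the deposited table.

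Genes of miR-1188 and miR-3072 lie within the imprinted Dlk1-Dio3 region, whose miRNAs come from the maternal chromosome, miR-1188 beside miR-341 and miR-127 and miR-3072 among the miRNA genes of the Mirg cluster. The level of miR-1188-5p was 3, 4 and 3 in Control and 2, 2 and 1 in CMS, without overlap (log2 difference -0.72, limma adjusted p = 0.14). Its neighbour miR-341 was at 2271.7 ± 581.2 in Control and 1643.3 ± 278.6 in CMS (mean ± SD, n = 3 each, limma adjusted p = 0.29), with overlapping libraries. The neighbour miR-127-3p fell (limma adjusted p = 0.00285). Its mean was 11878.7 ± 2364.9 (SD) for Control rats and 2356.7 ± 146.2 for CMS rats. For miR-3072 values were 9, 7 and 5 in Control and 8, 9 and 9 in CMS (limma adjusted p = 0.417). Both arms of miR-1247, a miRNA of the same region, and the 3p arm of miR-1188 were blank in all libraries.

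Some 4-digit miRNAs lie on the strand opposite to a better known one. The gene of miR-3065 overlaps that of miR-338, a miRNA of myelinating cells, in the gene Aatk. Values of miR-3065-5p were 2, 1 and 1 in Control and 0, 1 and 2 in CMS, while miR-338-3p was at 179.7 ± 1.53 and 172.3 ± 49.8 and miR-338-5p at 437 ± 12 and 427.3 ± 121.3 (mean ± SD, n = 3 each). None of the 3 passed (limma adjusted p of 0.667, 0.836 and 0.885). The opposite partners miR-3074 of miR-24-1, miR-3120 of miR-214 and miR-3596b of let-7 were blank in all libraries. Of their counterparts, miR-24-1-5p, the arm specific to that hairpin, had a mean of 23.2 over the 6 libraries. The mean was 1243.2 for miR-24-3p, which is also made from the miR-24-2 hairpin, 6381.3 for let-7b-5p and 1.5 for miR-214-3p.

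The width of the intervals differed among members. The 95% interval of the log2 difference ran from -0.56 to 0.063 for miR-1843a-5p, from -0.28 to 0.24 for miR-3559-5p and from -0.58 to 0.47 for miR-3099, whose CMS values spread from 107 to 183. Values of miR-6318 were 5, 8 and 6 in Control and 7, 5 and 3 in CMS (limma adjusted p = 0.542). Among the wide ones, the interval of miR-6315, with 0, 1 and 0 in Control and 4, 1 and 1 in CMS, ran from -0.071 to 2.29, a range that holds both 0 and the difference of miR-1249.

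Library totals lay between 709674 and 736078. Neuronal markers (miR-124-3p, miR-9a-5p and miR-128-3p) summed to 80272 to 109747 in Control and 89980 to 97563 in CMS, and no marker of any list was at 0 throughout. Oligodendrocyte markers summed to 1495 to 1751 in Control and 1565 to 2599 in CMS, and vascular ones to 16998 to 21069 and 18140 to 28976. Blood markers summed to 171 to 340 and 255 to 438, and those of choroid plexus to 24 to 36 and 35 to 56. Markers of other tissues were low, with miR-122-5p of liver at 6 to 13 and the 3 muscle markers at 17 to 72 in sum. All 3 astrocyte and microglial markers had values, and they summed to 2447 to 2544 in Control and to 3478 to 3999 in CMS. In tissue RNA, more cells of a type and more RNA per cell cannot be told apart. The part of this difference in the 3p arms, miR-1224 and miR-1249 was not tested.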

How the data were processed

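Total RNA from the medial prefrontal cortex was made into miRNA libraries read on an Illumina NextSeq (per the labels). Novoalign 2.07.11 was used, per the submitters' processing notes. How reads were trimmed, annotated and normalized, and the genome build, is not given in the sources used here. Deposited values are treated as a score, a normalized level that the authors rounded to whole numbers: library sums differ by only 3.72%, and for rows with a mean of 1 to 8 the variance was on average 0.456 (Control) and 0.53 (CMS) times the mean, which raw reads would not give. Depth is unknown.

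Samples were grouped by title, and the labels give 3 rats per group. Rows reaching 1 or more in 3 or more libraries were fitted with limma-trend 3.58.1 (R 4.3.3) on log2(value + 1), a scale that understates changes of low miRNAs, with Benjamini-Hochberg adjustment over 657 rows and a threshold of 0.05. Exact permutation of 3 against 3 cannot give p below 0.1, so it was not used. The fit was tested on simulated data, with changes planted only in miRNAs at a level above about 10. That test does not bear on the 3 members that passed, which lie lower. The members and lists were chosen with earlier results of these data known. Members named were to be those that passed, the 10 highest, the 10 with the smallest p, and those with a known origin or at the threshold. Others, such as miR-3542, miR-6315 and miR-3559-3p, were named after their values were seen. Sequences and neighbouring genes came from RefSeq GRCr8 by name, with 84 of the 96 rows matched; the authors' build may differ. No member with a mean of 10 or more had values within 5% of another row in all libraries.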

Additional observations from a re-analysis of the deposited data

How the results depend on the processing

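Alternatives were 2 other scalings, 2 other filters, no trend, pseudocounts of 0.1 and 10, annotated miRNAs alone, each library left out and the replicate block. Arm ratios, with their alternatives, were chosen after seeing the data. The 3 changed members became 1 with a trimmed mean and 1 to 5 over the libraries left out, and the 9 at unadjusted p became 4 with a minimum mean of 10 (13 members tested) and 6 to 12 over libraries. At that minimum mean this was 30.8% of members against 27.8% of all miRNAs. It was 18.75% against 18.4% without CMS 1 and 37.5% against 33.0% without Control 1. Leaving out any other library gave 25.8% to 31.25% of members against 17.0% to 22.3% of all. Each fit without a library still held miR-6321 or miR-3064-3p, which became members through 1 group alone. The 27 changed miRNAs of the whole table became 11 with annotated miRNAs alone, where fewer were tested, and 2 to 55 over libraries. The members' median log2 change of 0.11 became -0.0095 with a trimmed mean and 0 to 0.21 over libraries. The level gap of -3.65 was -4.35 with any value above 0, -2.56 with a value in all 6 libraries, -2.50 with a pseudocount of 10 and -3.72 to -3.63 over libraries. Changed arm ratios, 0 in the members, were 2 with a pseudocount of 10 (where 25% of all 144 hairpins passed) and 0 to 4 over libraries. The sign turned for miR-3068-5p (-0.11 with quantile normalization, -0.091 with a trimmed mean, and -0.027 to 0.16 over libraries, negative without CMS 3). Without CMS 1 it turned for miR-3065-5p (-0.69 to 0.10 over libraries), miR-3099 (-0.22 to 0.17) and miR-3559-5p (-0.041 to 0.010). With a pseudocount of 0.1 miR-3068-3p also passed (limma adjusted p = 0.0473). The cause of these shifts was not tested.

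Replicate numbers are shared between groups, and the labels used here do not say whether they mark pairs. The correlation of deviations from the group means was -0.11, -0.018 and -0.052 for numbers 1, 2 and 3. In this comparison 0 samples correlated best with their own number, but 3 samples per group are too few to decide whether they were paired. With the replicate block 1 member passed, miR-6321, which was also the only miRNA of the whole table to pass. Of the members' arm ratios 1 passed in that fit (miR-1843a), beside 22 of all 144 hairpins. Depth is unknown and could not be weighed.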
